A study of Mus musculus with 12 samples.

Results

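Superoxide and peroxides are made as by-products of mitochondrial respiration and of oxidase enzymes, and every cell holds enzymes that remove them. Superoxide dismutases turn superoxide into hydrogen peroxide, and glutathione peroxidases and peroxiredoxins then reduce the peroxide with electrons from glutathione or thioredoxin. The transcription factor NRF2 (gene Nfe2l2), held back by its partner KEAP1 until it is oxidised or alkylated, drives many of these genes, among them Nqo1, Gclc, Txnrd1 and Prdx1. The heart respires heavily and is rich in the dismutases.

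The 10 genes described here were chosen by name: the dismutases Sod1, Sod2 and Sod3, the glutathione peroxidases Gpx1, Gpx3 and Gpx4, the peroxiredoxin Prdx1, and the NRF2 targets Txnrd1, Gclc and Nqo1. They are 10 of 31722 gene symbols in the deposited table, and all 10 met the expression filter (at least 0.5 RPKM in at least 6 libraries), as 14087 genes did. RPKM is the read count scaled by gene length and library size. Hearts came from 6 C57BL/6J mice given carbon tetrachloride (CCl4), a liver toxicant used here to produce cirrhosis, and from 6 Control mice of the same strain, with 1 RNA library per heart. The labels used here give no sex, age, dose or duration, and no liver measurement was analysed here. Cardiomyocyte markers were high in every library, with 7 marker genes summing to 18101 to 27970 RPKM in CCl4 hearts and to 25474 to 31840 RPKM in Control hearts. Relative depth, counted in steps of the RPKM scale, was lowest in Control replicate 6 (26361341 steps) and highest in CCl4 replicate 4 (63377422 steps).

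In these hearts no defence gene differed between the groups beyond the test. With limma, 0 of the 10 genes passed at an adjusted p under 0.05, where 0% of all 14087 genes did. Their adjusted p ran from 0.320 for Sod1 to 0.924 for Gpx4. Of the 10 genes, 8 had a lower and 2 a higher fitted value in CCl4 hearts, with a median log2 fold change of -0.13. Over all genes tested 65.7% lay lower and the median was -0.05. At an unadjusted p under 0.05 there was 1 of 10 genes, Sod1, which was lower, beside 10.2% of all genes (1.6% higher and 8.58% lower), so the share among the 10 was near the background. In 0 of the 10 genes were the CCl4 and Control values free of overlap, as they were in 0.76% of all genes. The balance of directions over all genes moved with the scaling: 226 genes were higher and 1209 lower at an unadjusted p under 0.05 as deposited, against 772 and 792 with median-of-ratios scaling, 766 and 822 once quantile normalized, 643 and 591 after scaling without mitochondrial transcripts, and 144 and 1578 with TPM scaling. Among the 10 genes the count at that p was 0 with median-of-ratios scaling and without mitochondrial transcripts. Hearts of a group differed widely in Gpx3, Sod3 and Gpx1, whose spread on the log2 scale exceeded that of 99.4%, 96.3% and 90.7% of the genes tested, and less in Sod1 (26.2%).

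**Figure D1:**
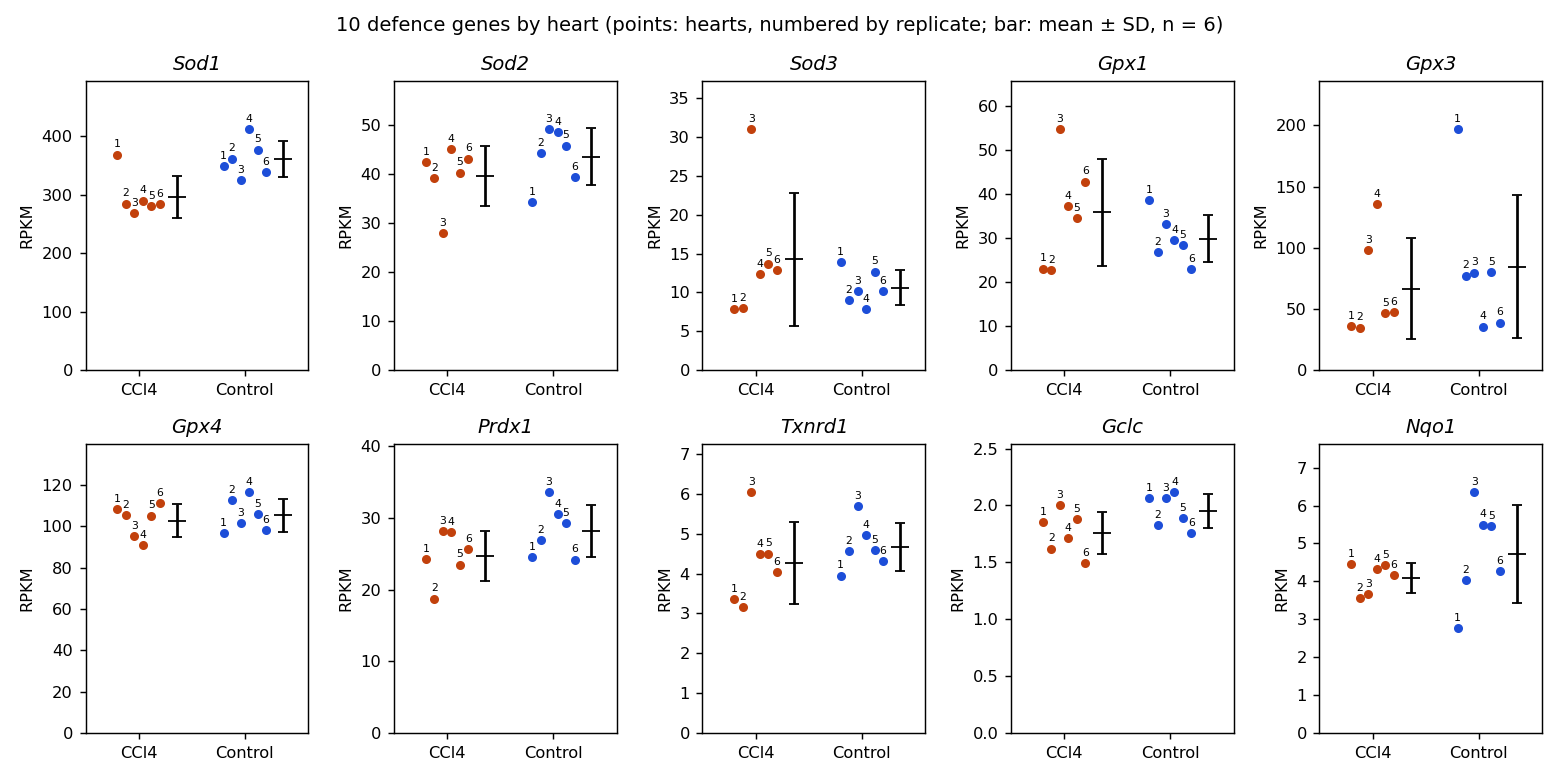
Level of each defence gene in RPKM (y axis, from 0) in the 6 CCl4 and the 6 Control hearts. Points are hearts numbered by replicate, and bars show the mean ± SD. In Sod1 only CCl4 replicate 1 lay among the Control hearts, CCl4 replicate 3 had the highest Sod3 (31.0 RPKM) and Gpx1 (54.8 RPKM), and Control replicate 1 the highest Gpx3 (197 RPKM).

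The promoter windows show which of these genes carry the letters of the antioxidant response element, the DNA site of NRF2 and its small MAF partners, close to their start. The core TGACNNNGC was searched on both strands in windows running from 250 bases before to 50 bases after a transcription start (RefSeq, GRCm38.p6). Windows were found for 8 of the 10 genes, all but Sod3 and the NRF2 target Gclc. There were 13 windows in all, since Gpx4 and Txnrd1 have several starts. A match lay in 3 of the 13 windows (23.1%), against 12.4% of 32851 windows of that length from all genes. By gene this was 3 of 8 genes (37.5%) against 14.0% of all genes. A gene with more windows has more room for a match, and Gpx4 held 4 and Txnrd1 3 of the 13 windows. The window of the NRF2 target Nqo1 held no match. These shares were not tested. The 3 matching windows are printed on the strand of the gene, with the match in capitals. In each the core reads against the gene, as TGACCACGC in Sod1, TGACTCAGC in Prdx1 and TGACAAAGC in Txnrd1, and its first printed base lies at -56, -133 and -92 in that order. The Prdx1 match also holds TGACTCA, the letters of the AP-1 site. A match in letters is not a measured binding site.
Sod1, chr16:90220512-90220811, plus strand: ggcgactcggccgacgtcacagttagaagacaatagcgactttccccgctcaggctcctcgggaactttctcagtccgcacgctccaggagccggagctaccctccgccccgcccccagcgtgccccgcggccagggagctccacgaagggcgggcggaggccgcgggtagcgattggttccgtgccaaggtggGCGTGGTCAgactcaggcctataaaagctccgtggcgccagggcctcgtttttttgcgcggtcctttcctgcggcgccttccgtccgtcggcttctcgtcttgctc
Prdx1, chr4:116685349-116685648, plus strand: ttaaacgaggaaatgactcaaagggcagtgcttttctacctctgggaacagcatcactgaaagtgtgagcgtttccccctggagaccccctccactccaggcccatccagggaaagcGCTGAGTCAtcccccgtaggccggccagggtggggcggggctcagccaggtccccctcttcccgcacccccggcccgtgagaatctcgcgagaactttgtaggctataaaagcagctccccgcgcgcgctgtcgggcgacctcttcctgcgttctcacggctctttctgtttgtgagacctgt
Txnrd1, chr10:82858956-82859255, plus strand: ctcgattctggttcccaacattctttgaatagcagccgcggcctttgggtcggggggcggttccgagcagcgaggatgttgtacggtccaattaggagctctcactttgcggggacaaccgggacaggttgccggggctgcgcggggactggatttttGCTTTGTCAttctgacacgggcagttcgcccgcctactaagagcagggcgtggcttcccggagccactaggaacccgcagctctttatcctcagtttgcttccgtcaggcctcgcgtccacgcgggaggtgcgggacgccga

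Sod1, the copper and zinc enzyme of the cytosol, was the most abundant of the 10 transcripts and ranked 115 of 14087 genes by mean RPKM. It lies on chromosome 16 (90220754 to 90226329, plus strand, GRCm38). Sod1 was at 368.1, 284.6, 268.5, 289.4, 279.7 and 283.8 RPKM in CCl4 replicates 1 to 6, against 348.8, 361.4, 324.8, 411.5, 376.9 and 338.8 RPKM in Control replicates 1 to 6. Thus 5 of 6 CCl4 hearts lay below every Control heart, within a narrow band, and CCl4 replicate 1 lay among the Controls. The means were 296 ± 36.2 RPKM in CCl4 and 360.4 ± 30.8 RPKM in Control hearts (SD, n = 6 each), a difference of -17.9%. On log2(RPKM + 1), the scale of every fold change here, the log2 fold change was -0.29 (SE 0.09, 95% interval -0.49 to -0.08). The limma adjusted p was 0.320, and it was 0.114 without CCl4 replicate 1 (log2 fold change -0.35). With limma's array weights, which weigh each library by how well it fits its group, Sod1 was lower in CCl4 hearts (log2 fold change -0.37, adjusted p = 0.00583), and so was Prdx1 (-0.25, adjusted p = 0.0464). Under those weights 16% of all genes were called, beside 2 of the 10. Mitochondrial transcripts took 31.6% to 43.8% of the reads in CCl4 hearts and 29.5% to 37.9% in Control hearts. Reads were taken in proportion to RPKM times exon length. With mitochondrial transcripts removed before scaling the Sod1 fold change was -0.19. The summed endothelial markers did not overlap between the groups: 6 marker genes summed to 214.5 to 271 RPKM in CCl4 hearts and to 281 to 357 RPKM in Control hearts. Most of that sum was Fabp4 (means 145 RPKM in CCl4 and 199 RPKM in Control hearts). Taken singly, only Tie1 and Esam were free of overlap. The part of these markers in the Sod1 values was not tested. In bulk tissue, fewer cells of a type and less RNA per cell cannot be told apart. Scaf4 overlaps Sod1 on the other strand and was far lower, at 9.03 ± 1.40 RPKM in CCl4 and 9.53 ± 0.878 RPKM in Control hearts (SD, n = 6 each).

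Sod2, the manganese enzyme of the mitochondrial matrix (chromosome 17, 13006846 to 13040063), spanned 27.9 to 45.1 RPKM with a median of 41.3 in CCl4 hearts, against 34.3 to 49.1 RPKM with a median of 45.0 in Control hearts. The lowest CCl4 value belonged to replicate 3, which also held the least cardiomyocyte marker RNA (18101 RPKM, other CCl4 hearts 25334 to 27970 RPKM), and the part of that in the Sod2 value was not tested. Its log2 fold change was -0.14 (SE 0.13, 95% interval -0.41 to 0.13, limma adjusted p = 0.750), and it ran from -0.04 without CCl4 replicate 3 to -0.24 without CCl4 replicate 4 and Control replicate 1. The log2 ratio of Sod2 to Sod1, taken within each heart on RPKM + 1 as for all ratios here, was -2.88 ± 0.229 in CCl4 and -3.03 ± 0.195 in Control hearts (SD, n = 6 each), a difference of 0.15 that did not pass an exact two-sided permutation test (p = 0.227, adjusted p = 0.341 over 3 ratios), with 4 of 6 CCl4 hearts over the median Control ratio. The smallest p that this test allows with 6 hearts a group is 0.00216.

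Sod3, the secreted dismutase that binds the matrix around vessels and fibroblasts (chromosome 5, 52363791 to 52371418), was at 7.89 to 31.0 RPKM with a median of 12.6 in CCl4 hearts, against 7.82 to 13.9 RPKM with a median of 10.1 in Control hearts. The groups overlapped, and only CCl4 replicate 3 lay above every Control heart. The next highest CCl4 heart was replicate 5, at 13.7 RPKM. The fitted log2 fold change was 0.27 (SE 0.26, 95% interval -0.29 to 0.83, limma adjusted p = 0.765), and 0.03 without CCl4 replicate 3. That heart held the most fibroblast marker RNA, 593 RPKM summed over 7 markers, beside 97.5 to 348 RPKM in the other CCl4 hearts and 88.8 to 239 RPKM in Control hearts. All 7 fibroblast markers had a higher fitted value in CCl4 hearts, while all 6 endothelial and all 6 smooth muscle markers had a lower one. The smooth muscle markers summed to 198 to 283 RPKM in CCl4 and to 228 to 381 RPKM in Control hearts. The part of these cell types in the Sod3 values was not tested.

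Gpx1, the abundant cytosolic peroxidase that carries selenocysteine at its active site (chromosome 9, 108338903 to 108340343), shared that heart. Gpx1 was at 22.8 to 54.8 RPKM with a median of 36.005 in CCl4 hearts, against 23.0 to 38.7 RPKM with a median of 29.0 in Control hearts. CCl4 replicates 3 and 6 (54.8 and 42.9 RPKM) lay above every Control heart, while CCl4 replicates 1 and 2 (23.1 and 22.8 RPKM) lay close to the lowest Control heart (23.0 RPKM). Between the groups the log2 fold change was 0.21 (SE 0.20, 95% interval -0.22 to 0.64, limma adjusted p = 0.772). It was 0.07 without CCl4 replicate 3 and 0.14 without Control replicate 6, but 0.32 without either CCl4 replicate 1 or 2. The 6 macrophage markers summed to 76.3 and 43.1 RPKM in CCl4 replicates 3 and 6, to 13.2 to 33.9 RPKM in the other CCl4 hearts and to 17.5 to 23.0 RPKM in Control hearts. C1qa alone gave 42.8 and 23.1 RPKM of the sums in CCl4 replicates 3 and 6. Of the 6 markers, 5 had a higher fitted value in CCl4 hearts and Cd163 a lower one. Cd163 was at 1.23 RPKM in CCl4 replicate 3, below every Control heart (2.13 to 2.57 RPKM). Red cells also hold GPX1. The 6 red cell markers summed to 157 to 244 RPKM in CCl4 and 116 to 235 RPKM in Control hearts, with a higher fitted value in CCl4 hearts for all 5 that were tested. The part of either cell type in the Gpx1 values was not tested.

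Gpx3, the secreted peroxidase of plasma (chromosome 11, 54902453 to 54910377), was the most uneven of the 10 genes: its spread within groups on the log2 scale, 0.84, exceeded that of 99.4% of the genes tested. Gpx3 was at 36.3, 34.7, 98.0, 136, 46.5 and 47.6 RPKM in CCl4 replicates 1 to 6, against 197, 77.2, 79.8, 35.6, 79.9 and 39.0 RPKM in Control replicates 1 to 6. The groups overlapped throughout. The means were 66.5 ± 41.2 RPKM in CCl4 and 84.7 ± 58.6 RPKM in Control hearts (SD, n = 6 each), with a log2 fold change of -0.30 (SE 0.42, 95% interval -1.20 to 0.59, limma adjusted p = 0.851). The hearts with most Gpx3 in each group, CCl4 replicate 4 and Control replicate 1, also held the most Myl7, the atrial myosin light chain, at 307 and 419 RPKM. Control replicates 2, 3 and 5 held 141, 181 and 179 RPKM of Myl7, and the 6 hearts with under 20 RPKM of it had 34.7 to 47.6 RPKM of Gpx3. CCl4 replicate 3 stood apart from this order, with 98.0 RPKM of Gpx3 and 28.7 RPKM of Myl7. Its 6 atrial markers summed to 9642 RPKM (all CCl4 hearts 834 to 11754 RPKM, Control hearts 608 to 15078 RPKM). Of that sum Nppa alone made up 9552 RPKM, so it says little about the other atrial markers. Adipocyte markers followed the same hearts: 6 of them summed to 38.7 RPKM in CCl4 replicate 4 and to 0.786 to 3.08 RPKM in the other CCl4 hearts, against 33.4 RPKM in Control replicate 1 and 2.33 to 27.0 RPKM in the other Control hearts. With a score of the atrial markers other than Nppa as a covariate, the log2 fold change of Gpx3 was 0.26 (limma adjusted p = 0.695), opposite in sign. Without Control replicate 1 it was -0.02, without CCl4 replicate 4 it was -0.55, and without that Control heart and CCl4 replicate 4 it was -0.26. Whether atrial muscle, fat or both set the Gpx3 values was not tested.

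**Figure D2:**
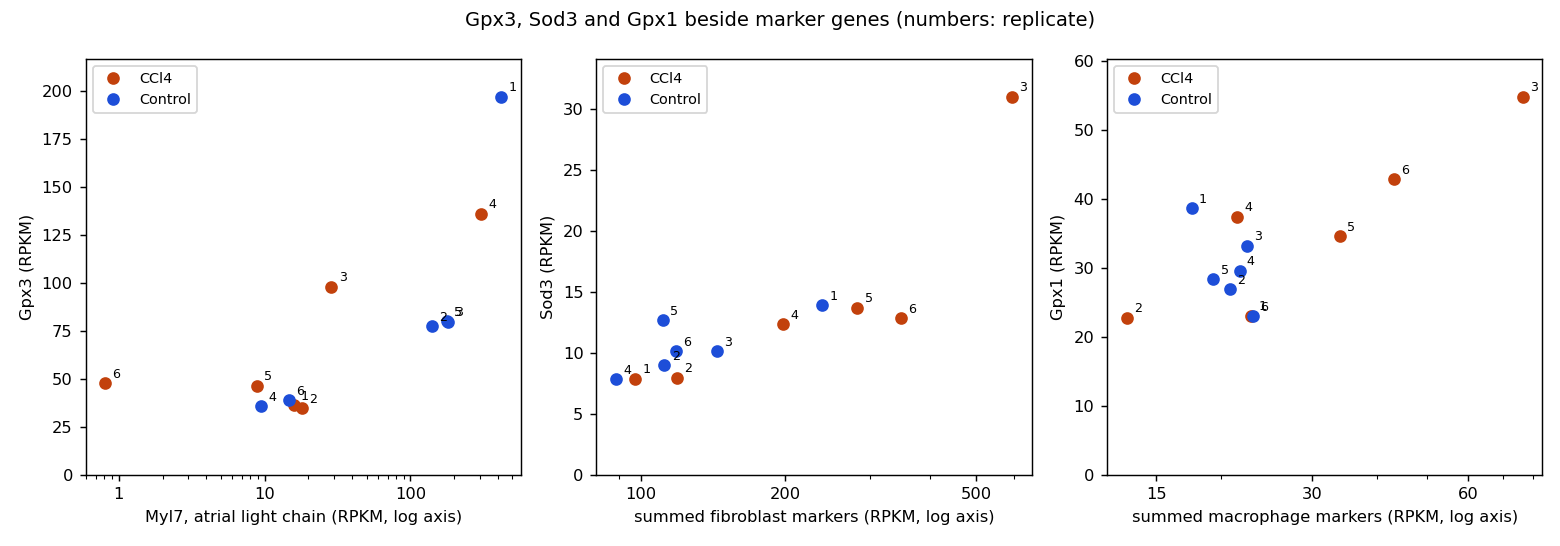
Gpx3, Sod3 and Gpx1 (y axes, RPKM from 0) in each heart against Myl7, the summed fibroblast markers and the summed macrophage markers (x axes, RPKM, log scale). Points are hearts, numbered by replicate. The highest Gpx3 lies at the highest Myl7 (Control replicate 1, 419 RPKM), and CCl4 replicate 3 lies at the top right for Sod3 and Gpx1.

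Gpx4, the selenoenzyme that reduces lipid hydroperoxides in membranes and holds back ferroptosis (chromosome 10, 80047166 to 80056439), was the steadiest of the abundant members. Gpx4 was at 90.8 to 111 RPKM with a median of 105 in CCl4 hearts, against 96.5 to 117 RPKM with a median of 104 in Control hearts. The coefficient of variation was 7.77% in CCl4 and 7.62% in Control hearts. The log2 fold change was -0.03 (SE 0.08, limma adjusted p = 0.924) with a 95% interval of -0.21 to 0.14. On RPKM + 1 that is from 0.862 to 1.11 times the Control value. Its sign was positive with median-of-ratios scaling (0.03), with quantile normalization (0.03) and after scaling without mitochondrial transcripts (0.06). The hearts richest in Myl7 had low Gpx4, 90.8 RPKM in CCl4 replicate 4 and 96.5 RPKM in Control replicate 1. Other hearts did not follow: Gpx4 was 95.1 RPKM in CCl4 replicate 3 (Myl7 28.7 RPKM) and 106 RPKM in Control replicate 5 (Myl7 179 RPKM).

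Prdx1, the cytosolic peroxiredoxin that is reduced by thioredoxin (chromosome 4, 116685544 to 116700822), was at 18.7 to 28.2 RPKM with a median of 24.9 in CCl4 hearts, against 24.2 to 33.6 RPKM with a median of 28.1 in Control hearts. Below every Control heart lay 2 of 6 CCl4 hearts. Its log2 fold change was -0.19 (SE 0.11, 95% interval -0.43 to 0.06, limma adjusted p = 0.604). It was -0.11 without CCl4 replicate 2, and -0.12 with median-of-ratios scaling, -0.10 with quantile normalization and -0.09 after scaling without mitochondrial transcripts. Txnrd1, the selenoenzyme of the cytosol that reduces thioredoxin (chromosome 10, 82833951 to 82897712), was at 3.16 to 6.05 RPKM with a median of 4.26 in CCl4 hearts, against 3.94 to 5.70 RPKM with a median of 4.57 in Control hearts. CCl4 replicates 1 and 2 lay below every Control heart and CCl4 replicate 3 above every one. The protein-coding gene Eid3 overlaps Txnrd1 on the same strand, and Gm38560 and Gm47073 overlap it on the other. Whether they share reads with Txnrd1 was not tested. The fitted log2 fold change was -0.12 (SE 0.12, 95% interval -0.39 to 0.14, limma adjusted p = 0.776). It was -0.21 without CCl4 replicate 3, but -0.07 without CCl4 replicate 1, -0.06 without CCl4 replicate 2 and -0.08 without Control replicate 3, and -0.05 after scaling without mitochondrial transcripts. The log2 ratio of Txnrd1 to Txnrd2, the mitochondrial reductase, was 1.05 ± 0.325 in CCl4 and 1.02 ± 0.104 in Control hearts (SD, n = 6 each; exact permutation p = 0.861, adjusted p = 0.861 over 3 ratios), with 3 of 6 CCl4 hearts above the median Control ratio. The highest ratio, 1.58, belonged to CCl4 replicate 3, and without it the difference was -0.08 instead of 0.03. With a pseudocount of 0.1 in place of 1 and all hearts kept, the difference was 0.08.

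Gclc, the catalytic subunit of the ligase that makes the first step of glutathione synthesis (chromosome 9, 77754535 to 77794485), was the lowest of the 10 genes. It was at 1.49 to 2.00 RPKM with a median of 1.78 in CCl4 hearts, against 1.75 to 2.12 RPKM with a median of 1.98 in Control hearts. Below every Control heart lay 3 of 6 CCl4 hearts. Between the groups the log2 fold change was -0.10 (SE 0.07, 95% interval -0.25 to 0.05, limma adjusted p = 0.656), and with a pseudocount of 0.1 in place of 1 it was -0.15. Scaling moved it further, to -0.16 with TPM and to -0.04 without mitochondrial transcripts. Its modifier subunit Gclm was at 1.07 ± 0.218 RPKM in CCl4 and 1.03 ± 0.0605 RPKM in Control hearts (SD, n = 6 each). The log2 ratio of Gclc to Gclm was 0.42 ± 0.136 in CCl4 and 0.54 ± 0.0821 in Control hearts (SD, n = 6 each), a difference of -0.12 that did not pass an exact permutation test (p = 0.0952, adjusted p = 0.286 over 3 ratios), with 5 of 6 CCl4 hearts under the median Control ratio. Both genes lie near the added 1, which shrinks this ratio, and with a pseudocount of 0.1 the difference was -0.18.

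Nqo1, the quinone reductase that is widely read as the marker target of NRF2 (chromosome 8, 107388225 to 107403206, minus strand), was at 3.55 to 4.45 RPKM with a median of 4.24 in CCl4 hearts, against 2.76 to 6.36 RPKM with a median of 4.86 in Control hearts. All 6 CCl4 hearts lay below the Control median and inside the Control range. The log2 fold change was -0.14 (SE 0.14, 95% interval -0.44 to 0.16, limma adjusted p = 0.779). On RPKM + 1 its interval ran from 0.737 to 1.12 times the Control value, and at so low a level the added 1 draws such ratios together. With a pseudocount of 0.1 the log2 fold change was -0.16. The coefficient of variation was 9.54% in CCl4 and 27.3% in Control hearts. The lowest Control value was that of replicate 1, and without that heart the log2 fold change was -0.25. Without Control replicate 3, the highest, it was -0.06, as it was after scaling without mitochondrial transcripts.

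**Figure D3:**
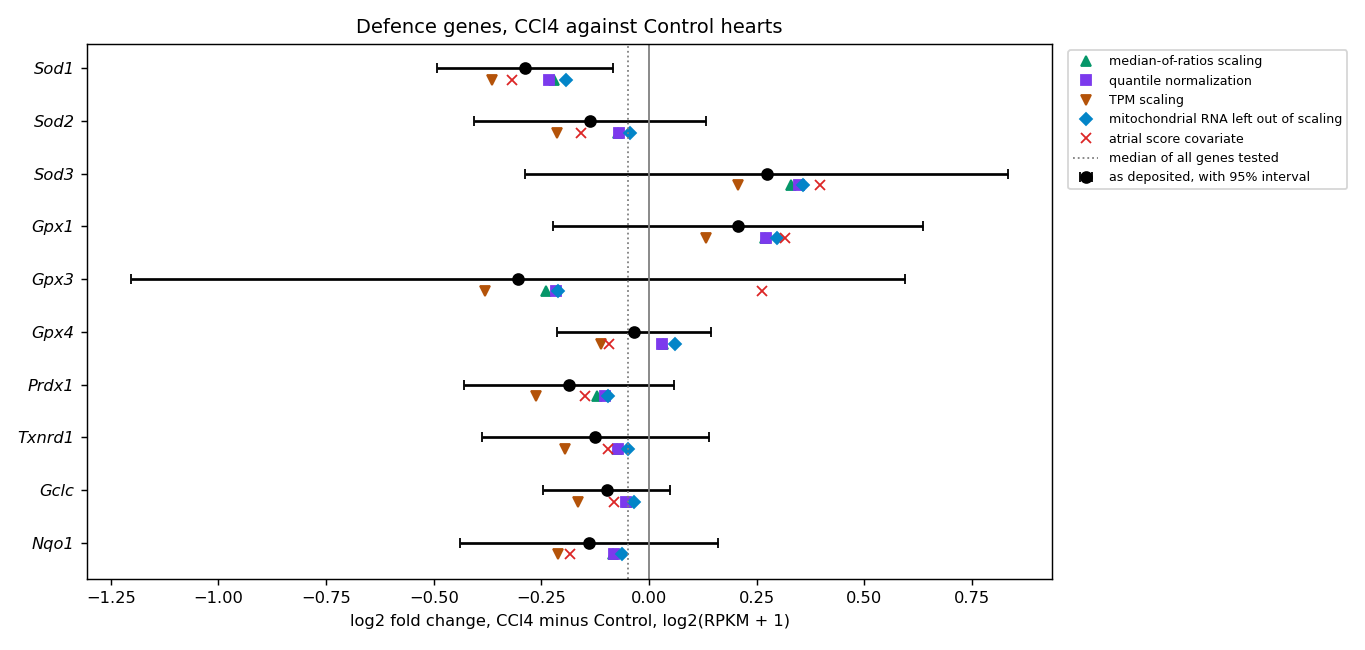
Log2 fold change of each defence gene (x axis, CCl4 minus Control on log2(RPKM + 1)); black points and bars give the value as deposited with its 95% interval, coloured marks the value under 4 other scalings and with an atrial score as a covariate. Sod1 alone has an interval that leaves out 0 before adjustment (-0.49 to -0.08), and Gpx3 has the widest (-1.20 to 0.59).

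By level the order over the 12 hearts was Sod1, Gpx4, Gpx3, Sod2, Gpx1, Prdx1, Sod3, Txnrd1, Nqo1 and Gclc. Gpx4 overlapped in range with Gpx3, as did Gpx3 with Sod2, Sod2 with Gpx1, Gpx1 with Prdx1, Prdx1 with Sod3, and Nqo1 with Txnrd1, while Sod1 and Gclc were clear of all others in every heart. RPKM divides by gene length, and the annotated exons of Sod2 (10008 bases over all its transcripts) far exceed those of Gpx1 (1441 bases), so a level of Sod2 depends on which transcripts are counted.

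Standardised levels over the 12 hearts showed which genes varied alike, measured as the mean absolute difference between profiles. The nearest pair within the 10 was Sod3 and Gpx1, which differed by 0.455 SD on average, followed by Prdx1 and Txnrd1 (0.494 SD) and Sod2 and Nqo1 (0.548 SD). Sod3 and Gpx1 were both highest in CCl4 replicate 3 (2.63 and 2.00 SD above their means). Outside the 10, the nearest gene to Sod2 was Uqcrc1, a core subunit of respiratory complex III (0.111 SD), and the nearest to Gpx1 was Sulf1, an extracellular heparan sulfatase (0.143 SD). Nearest to Sod3 was Mpp1 (0.150 SD), to Prdx1 the co-chaperone Stip1 (0.159 SD), to Gpx3 Olfm1 (0.193 SD) and to Txnrd1 Ppp1r8 (0.204 SD). Nqo1 was closest to the proteasome subunit Psmb7 (0.263 SD) and Sod1 to Spata33 (0.278 SD). Gclc with Slc24a5 (0.381 SD) and Gpx4 with the calcium binding protein S100a1 (0.388 SD) had the loosest matches. The median distance to other genes was 0.748 to 1.14 SD. Each nearest gene was picked as the closest of all genes compared over 12 hearts, so it had to lie under that median.

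**Figure D4:**
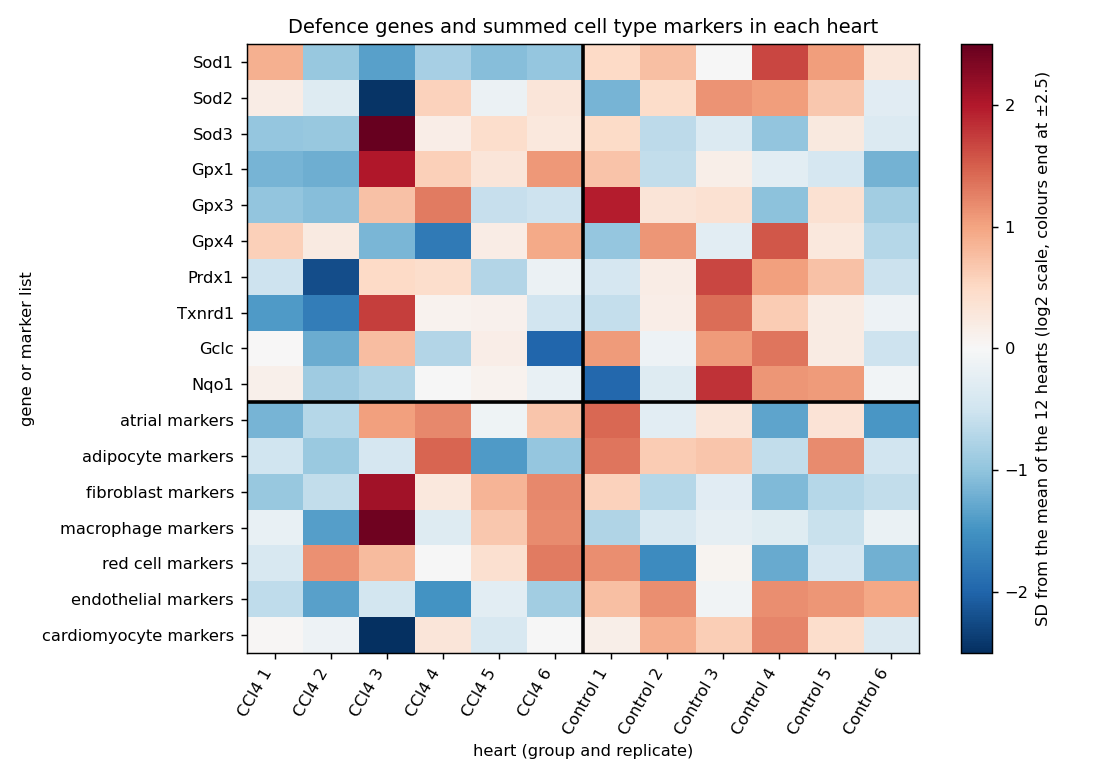
Standardised level (colour, SD from the mean of the 12 hearts on the log2 scale) of the 10 defence genes and of 7 summed marker lists in each heart, with CCl4 hearts on the left. CCl4 replicate 3 is high in Sod3, Gpx1 and Txnrd1 together with fibroblast and macrophage markers, and low in Sod1 and Sod2 together with cardiomyocyte markers.

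In the rest of the pathway, 0 genes passed the limma test in each of 6 lists, where 0% of all genes did. The signs of the list medians depend on the scaling: with median-of-ratios scaling those of NRF2 regulators (0.01), other NRF2 targets (0.04), glutathione genes (0.03) and selenoprotein genes (0.02) were above 0, and that of the other peroxide and thioredoxin enzymes was -0.02. Of the NRF2 regulators, 4 of 13 had a higher and 9 a lower fitted value in CCl4 hearts (median -0.02). The factor itself, named for its role after its values were seen, was at 7.69 ± 1.32 RPKM (Nfe2l2) in CCl4 and 7.53 ± 0.815 RPKM in Control hearts, and its repressor Keap1 at 5.36 ± 0.809 RPKM in CCl4 and 5.36 ± 0.384 RPKM in Control hearts (SD, n = 6 each). The smallest p belonged to Sqstm1, the autophagy receptor p62 that binds KEAP1, at 48.9 ± 10.8 RPKM in CCl4 and 37.7 ± 5.25 RPKM in Control hearts (log2 fold change 0.35, SE 0.15, limma adjusted p = 0.443, above every Control heart in 4 of 6). The next were Rbx1 (-0.13) and Nfe2l1 (-0.10), whose products belong to the ubiquitin ligase of NRF2 and to the same factor family, and the peptidase gene Dpp9 (-0.08).

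Of 28 tested among 31 other NRF2 targets, 13 lay higher and 15 lower in CCl4 hearts, with a median of -0.01. The 4 of smallest p were Gstp1, Epha2, Gsta3 and Gstm1. The glutathione transferase Gstp1 was at 20.8 to 24.3 RPKM in CCl4 hearts, against 23.0 to 29.99 RPKM in Control hearts (log2 fold change -0.27, SE 0.08, limma adjusted p = 0.296). Gstm1 was at 45.4 to 77.2 RPKM in CCl4 hearts, against 65.0 to 85.2 RPKM in Control hearts, with 5 of 6 CCl4 hearts below every Control heart (-0.27, adjusted p = 0.442). Gsta3 went the other way, at 1.008 to 3.56 RPKM in CCl4 hearts, against 0.634 to 3.38 RPKM in Control hearts (0.60, SE 0.24, adjusted p = 0.404). Near-identical family members can share the reads of these transferases. The highest Control value of Gsta3 was that of replicate 1 (3.38 RPKM, other Control hearts at or under 1.22 RPKM). The lowest CCl4 value was also that of replicate 1 (1.008 RPKM, other CCl4 hearts 1.97 to 3.56 RPKM). Without both libraries numbered 1, and so without these end values, Gsta3 was higher in CCl4 hearts (log2 fold change 0.94, limma adjusted p = 0.00611). In that setting 2.22% of all genes were called. The ephrin receptor Epha2 was at 1.12 ± 0.272 RPKM in CCl4 and 1.52 ± 0.239 RPKM in Control hearts (SD, n = 6 each). Hmox1, the haem oxygenase that NRF2 and BACH1 control, was named for its role and lay at 0.979 to 3.29 RPKM in CCl4 hearts, against 1.43 to 1.96 RPKM in Control hearts, highest in CCl4 replicate 3.

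Of 25 tested among 27 other peroxide and thioredoxin enzymes, 5 lay higher and 20 lower in CCl4 hearts, with a median of -0.06. Txnip, the inhibitor of thioredoxin, was at 26.9 to 31.6 RPKM in CCl4 hearts, against 27.2 to 53.2 RPKM in Control hearts (log2 fold change -0.45, SE 0.15, limma adjusted p = 0.348). The glutaredoxin Glrx3 (-0.25, adjusted p = 0.363) and Txnrd2 (-0.15, adjusted p = 0.511) also lay lower, and Msrb1, a selenoenzyme that repairs oxidised methionine, lay higher (0.30, adjusted p = 0.386). Catalase (Cat), named for its role, was at 45.9 ± 3.71 RPKM in CCl4 and 49.96 ± 2.25 RPKM in Control hearts (SD, n = 6 each).

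Of 13 tested among 15 genes of glutathione synthesis and recycling, 5 lay higher and 8 lower in CCl4 hearts, with a median of -0.02. Ggct, an enzyme of glutathione breakdown, was at 3.05 ± 0.363 RPKM in CCl4 and 3.67 ± 0.268 RPKM in Control hearts (log2 fold change -0.21, SE 0.08, limma adjusted p = 0.376; SD, n = 6 each). Idh2 (-0.33), whose product makes mitochondrial NADPH, Nnt (-0.29) and Oplah (-0.08) came next, with limma adjusted p of 0.542, 0.567 and 0.780. Of 19 tested among 21 genes of selenoprotein synthesis and other selenoproteins, 8 lay higher and 11 lower (median -0.03). Secisbp2, which lets ribosomes read selenocysteine, was at 5.43 ± 0.246 RPKM in CCl4 and 6.21 ± 0.431 RPKM in Control hearts (log2 fold change -0.16, SE 0.07, limma adjusted p = 0.425; SD, n = 6 each). The selenoprotein gene Selenoh had a fold change of -0.20 (adjusted p = 0.507).

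Of 11 tested among 18 genes for sources of superoxide, 8 lay higher and 3 lower in CCl4 hearts. Their median was 0.07, and it was -0.0042 without CCl4 replicate 3. Cybb, the catalytic subunit of the phagocyte NADPH oxidase, was at 0.888, 0.581, 5.29, 0.972, 2.44 and 3.07 RPKM in CCl4 replicates 1 to 6, against 0.664, 0.687, 0.923, 0.885, 0.711 and 1.150 RPKM in Control replicates 1 to 6. Only CCl4 replicates 3, 5 and 6 lay above every Control heart (log2 fold change 0.63, SE 0.28, limma adjusted p = 0.451). These are also the CCl4 hearts with the most macrophage marker RNA (76.3, 33.9 and 43.1 RPKM, Control hearts 17.5 to 23.0 RPKM). C1qa alone gave 42.8, 17.4 and 23.1 RPKM of these sums. The macrophage marker Cd163 was not high there (1.23, 1.63 and 2.14 RPKM, Control hearts 2.13 to 2.57 RPKM). The part of macrophage RNA in the Cybb values was not tested. Ncf1, a cytosolic subunit of that oxidase, was at 2.37 ± 1.29 RPKM in CCl4 and 1.63 ± 0.241 RPKM in Control hearts (SD, n = 6 each). The amine oxidase Maob (log2 fold change -0.46, adjusted p = 0.508) and Poldip2 (-0.11, adjusted p = 0.779) lay lower.

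**Figure D5:**
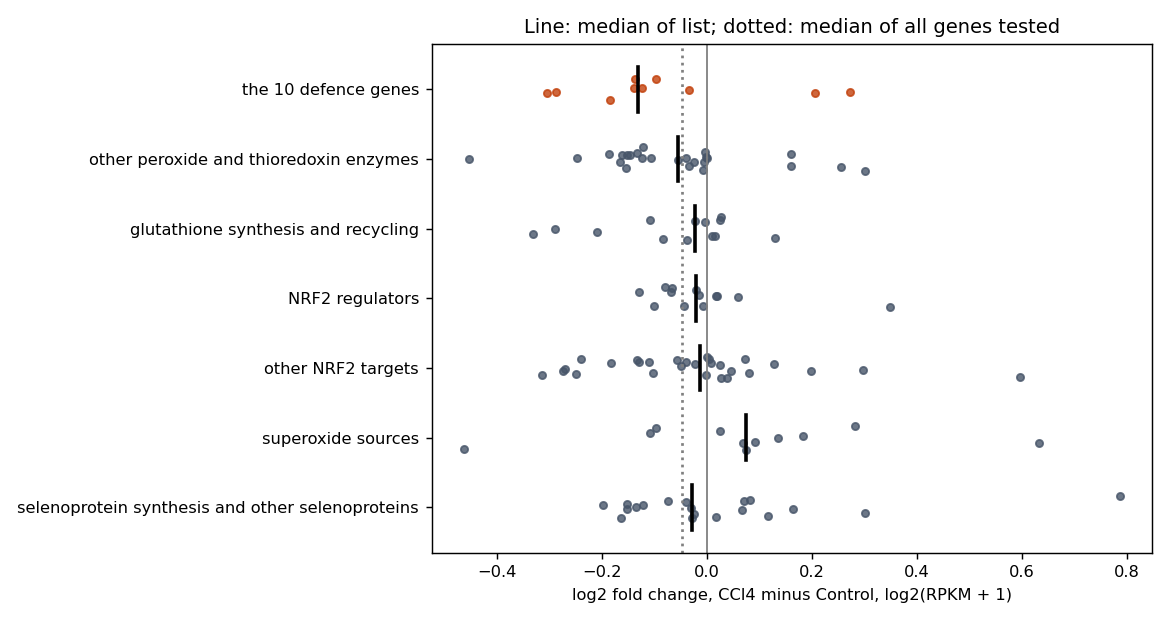
Log2 fold change (x axis, CCl4 minus Control on log2(RPKM + 1)) of the 10 defence genes and of the tested genes of 6 pathway lists (rows). Points are genes, black lines list medians and the dotted line the median of all genes tested (-0.05). As deposited, the superoxide sources have the only list median above 0 (0.07), which was -0.0042 without CCl4 replicate 3. With median-of-ratios scaling, quantile normalization or scaling without mitochondrial transcripts, 5 of the 6 list medians were above 0.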

How the data were processed

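Heart tissue was profiled by stranded mRNA sequencing, 1 library per mouse. The deposited values are RPKM; per the submitters' processing notes, the tools named are Trimmomatic 0.36 and featureCounts of Subread 1.5.1, with the GRCm38 build. Aligner, annotation and strand setting: not given in the sources used here. Groups and replicate numbers came from sample titles. Relative depth was recovered from the RPKM steps with GENCODE M21 exon lengths for 95.2% of symbols; among values of at most 30 steps, the share that fell within 0.05 of a whole number was 92.7% to 93.9% by library. A step need not be a whole read.

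Genes with at least 0.5 RPKM in at least 6 libraries were tested with limma 3.58.1 (R 4.3.3; trend fit to log2(RPKM + 1) over 12 libraries, no covariate, Benjamini-Hochberg threshold 0.05). Intervals are 95% and unadjusted. In a test on simulated data of 13578 genes for CCl4 against Control, the fit called 62.7% of genes changed 1.5-fold and 92.5% of those changed 2-fold, and 14 of 13378 with no change. Changes were placed only in genes with a mean of at least 2 RPKM, which leaves out Gclc. Changes under 1.5-fold were not simulated, and the fitted change of each of the 10 genes was smaller than that. Genes were drawn independently, so shifts shared by many genes of a heart were not simulated. Ratios of 3 gene pairs were compared with exact permutation tests. Marker and pathway lists were described by counts and medians. The members and lists were chosen with earlier results of these data known. Besides the 10 members, up to 4 genes of smallest p per pathway list (mean of at least 1 RPKM in either group) and the nearest gene to each member were named; Nfe2l2, Keap1, Hmox1 and Cat were added for their roles. P-values measure the spread between these mice. Alternatives covered pseudocount, filter, scaling, weights, covariates, the replicate number as a block and libraries left out. Same-numbered libraries correlated at -0.474 to 0.232 in their deviations from group means. Promoter windows on chromosome 18 were left out. Coordinates are 1-based on GRCm38 (GENCODE M21). Python 3.11.15, pandas 2.3.3 and numpy 2.4.6 were used.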

Additional observations from a re-analysis of the deposited data

Results flagged for a closer look

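In 4 of 26 groups of 6 hearts examined (the 10 genes and 3 ratios in each group), an end value stood far from the rest by Dixon's gap test, which flags about 1 in 20 groups by chance. Sod1 was at 368 RPKM in CCl4 replicate 1, above the next CCl4 heart at 289 RPKM. Sod2 was at 27.9 RPKM in CCl4 replicate 3, below the next at 39.1 RPKM. Sod3 was at 31.0 RPKM in the same CCl4 heart, above the next at 13.7 RPKM. Gpx3 was at 197 RPKM in Control replicate 1, above the next Control heart at 79.9 RPKM.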

How the results depend on the processing

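Each of the 10 genes kept its direction and its side of the threshold in all alternatives run, except for these. With array weights Sod1 and Prdx1 passed (2 of the 10 genes, 18 pathway genes and 2249 genes in all). Gpx3 was positive with the atrial covariate (0.26) and without both libraries numbered 1 (0.12). Gpx4 was positive with median-of-ratios scaling (0.032), quantile normalization (0.030) and scaling without mitochondrial RNA (0.059). The 0 genes called over the whole table became 1 with the atrial covariate, 307 without both libraries numbered 1 (1 pathway gene, Gsta3), and 1 without CCl4 replicate 4 and Control replicate 1, a pair chosen after seeing the data. Leaving out each library in turn gave 0 to 46 genes, with 46 without CCl4 replicate 1, 30 without Control replicate 1, 2 without CCl4 replicate 6 and 1 without CCl4 replicate 4, and 0 of the 10 genes. The Txnrd1 to Txnrd2 difference ran from -0.076 (without CCl4 replicate 3) to 0.11 with a library left out and was -0.0046 without the chosen pair; the Gclc to Gclm difference ran from -0.15 to -0.09 and the Sod2 to Sod1 difference from 0.09 to 0.22. Over all genes the median fold change moved from -0.05 to -0.10 under TPM scaling, and to 0.02 when mitochondrial transcripts were removed before scaling. No list median other than that of the peroxide and thioredoxin enzymes kept its sign in all these alternatives. Gclc was not tested with the filter at a mean of 2 RPKM. The cause of these shifts was not tested.

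Same-numbered libraries correlated at -0.474, 0.232, -0.0239, -0.246, 0.183 and 0.14 in their deviations from group means, for replicates 1 to 6. CCl4 replicates 2 and 6 correlated most with the Control library of their own number, and the other CCl4 replicates with another one. Whether same-numbered hearts shared a batch was not tested. With the replicate block 0 genes passed, the lowest adjusted p among the 10 genes was 0.634, and the 3 ratios had adjusted p of 0.469, 0.469 and 0.781. For the ratios the block was a sign-flip test over 6 same-numbered pairs. Its smallest p is so large that 1 ratio reaching it alone could not pass after adjustment over 3 ratios.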
